A study of Mus musculus with 2 samples.

Results

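The interferon-stimulated gene module described here is a list of 40 mouse genes known to be induced by interferons. It was read in single-cell transcriptomes of liver tumours from Crtc2-/- and Crtc2+/+ mice. This list and the other gene lists below were chosen with earlier results of these data known. Counts set beside all genes are therefore descriptions. The members were taken by name from the list of 40, and 38 of the 40 were among the 32285 features of the count tables. Mx1 and Mx2 were not analysed here. The Crtc2 protein is a coactivator that works with the transcription factor CREB. Crtc2-/- and Crtc2+/+ mice alike had received diethylnitrosamine, a liver carcinogen, into the peritoneum at 25 mg/kg when 2 weeks old, and a diet that causes steatohepatitis (NASH diet) from week 8 to week 26, when tumours were taken. Each genotype was represented by 1 library, made by droplet capture of cells and counting of unique molecular identifiers (UMIs). How many animals and tumours went into each library is not stated in the labels. No difference below has a replicate check, no test was possible, and genotype cannot be told apart from animal, tumour or library. Intervals below are at 95% and hold counting error alone.

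Interferons bind cell surface receptors whose kinases phosphorylate STAT proteins. Type I and type III interferons act through ISGF3, a transcription factor complex that binds a promoter element, the interferon-stimulated response element, and switches on a shared set of antiviral genes in nearly every cell type. In the liver this set is switched on during viral hepatitis and, in tumours, in both immune and parenchymal cells that meet interferon. Its products cut or trap foreign RNA, sense nucleic acids, tag proteins with ISG15 and limit the signal itself.

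The promoters shown, for how they carry or lack that element, are those of the 4 members with the lowest ratios in CD8 T cells among members with at least 100 UMIs there and a RefSeq window, which leaves out Usp18. The sequences are from RefSeq on build GRCm38.p6, written 5′ to 3′ along the gene's strand, from 250 bases before to 50 bases after the transcription start. Capitals mark each match to the element's core, GAAA followed by any 2 bases and GAAA again, on either strand. Ifit3 lies at chr19:34583279-34583578 (plus strand), Slfn5 at chr11:82951852-82952151 (plus strand), Rsad2 at chr12:26456403-26456702 (minus strand) and Oasl2 at chr5:114896684-114896983 (plus strand).
Ifit3: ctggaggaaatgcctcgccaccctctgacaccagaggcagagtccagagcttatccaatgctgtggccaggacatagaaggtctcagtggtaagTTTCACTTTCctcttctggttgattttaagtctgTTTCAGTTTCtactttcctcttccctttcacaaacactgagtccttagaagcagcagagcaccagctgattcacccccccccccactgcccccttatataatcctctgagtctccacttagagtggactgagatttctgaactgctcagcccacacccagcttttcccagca
Slfn5: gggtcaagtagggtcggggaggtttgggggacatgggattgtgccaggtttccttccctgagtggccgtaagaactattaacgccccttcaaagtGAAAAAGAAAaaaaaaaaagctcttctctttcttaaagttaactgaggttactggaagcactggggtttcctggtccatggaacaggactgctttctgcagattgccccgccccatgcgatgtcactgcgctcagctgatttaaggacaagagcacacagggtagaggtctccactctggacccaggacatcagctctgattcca
Rsad2: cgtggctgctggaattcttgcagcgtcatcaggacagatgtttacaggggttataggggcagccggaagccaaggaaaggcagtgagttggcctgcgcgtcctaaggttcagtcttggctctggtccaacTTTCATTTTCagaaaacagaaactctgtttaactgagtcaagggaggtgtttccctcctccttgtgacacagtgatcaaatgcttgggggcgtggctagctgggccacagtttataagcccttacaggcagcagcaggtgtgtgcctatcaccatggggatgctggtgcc
Oasl2: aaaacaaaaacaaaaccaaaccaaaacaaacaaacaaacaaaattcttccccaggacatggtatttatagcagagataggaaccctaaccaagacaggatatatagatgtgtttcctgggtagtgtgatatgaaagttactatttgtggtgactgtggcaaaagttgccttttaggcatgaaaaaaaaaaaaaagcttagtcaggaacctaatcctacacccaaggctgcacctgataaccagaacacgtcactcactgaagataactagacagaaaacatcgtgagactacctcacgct
Ifit3 held 2 matches, whose first bases lay 156 and 122 bases before the start. Rsad2 held 1 match at 120 bases and Slfn5 1 match at 155 bases before the start, and the Oasl2 window held 0. Of the 31 members with a RefSeq promoter, 18 (58.1%) held the core in a window, against 3.99% of all 27025 genes with one. Isg15 held the most matches, 3 that overlap each other, at 78, 72 and 66 bases before the start. A match is a string of letters, not a measured binding site.

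Members of 1 family often sat side by side in the genome (GRCm38, GENCODE M21). The 5 IFIT genes lay on chromosome 19 between 34550694 (start of Ifit2) and 34650009 (end of Ifit1). The 5 OAS and OAS-like genes were on chromosome 5, Rsad2 and Cmpk2 were neighbours on chromosome 12, and Parp14, Dtx3l and Parp9 lay together on chromosome 16. Parp9 (plus strand, start 35938470) and Dtx3l (minus strand, 5′ end 35939151) overlap at their 5′ ends, away from the counted 3′ tags. Near-identical 3′ ends make some counts uncertain, because reads can be split between copies. In the last 500 transcript bases, Oas1a shared 51.2% of its 60-base words with another gene (Oas1g), Phf11b 36.7% (Phf11c), Slfn8 20.3%, Phf11d 18.7%, Ifi213 15.9% and Ifit3 12.9% (Ifit3b). The other members shared at most 4.76%.

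The Crtc2-/- library held 9242 barcodes and 78040008 UMIs and the Crtc2+/+ library 9707 barcodes and 81487425 UMIs. The cells used, filtered and freed of called doublets, numbered 8901 in the Crtc2-/- and 9349 in the Crtc2+/+ library, with medians of 6560 and 7115 UMIs, and 29 barcodes occurred in both libraries. Crtc2 itself, which checks the labels only if its 3′ tags lie in the deleted part, had 5.43 (4.91 to 5.99) CPM in Crtc2-/- and 7.96 (7.34 to 8.61) CPM in Crtc2+/+ cells. CPM are counts of UMIs of a gene divided by all UMIs of the cells summed, times 1e+06. Cells were assigned to 10 gates by UMIs of defining genes. Marker genes outside the gating rules were highest in their own gate for all 6 markers of B cells, neutrophils and endothelial cells and all 7 of hepatocytes, in both libraries. For plasmacytoid dendritic cells (pDC) this held for 5 of 6 markers in Crtc2-/- and 6 of 6 in Crtc2+/+ cells, for NK cells for 6 of 7, for macrophages for 5 of 6, and for Ly6c2 monocytes for 4 of 6 in Crtc2-/- and 5 of 6 in Crtc2+/+ cells. The markers of the CD8 and CD4 T gates were highest in a T gate for 5 of 6 and 6 of 6 markers. In their own gate they were highest for 2 of 6 CD8 T markers in Crtc2-/- and 1 of 6 in Crtc2+/+ cells, and for 4 of 6 CD4 T markers in Crtc2-/- and 5 of 6 in Crtc2+/+ cells. The cell mixture differed: macrophages made up 1048 Crtc2-/- and 4487 Crtc2+/+ cells, CD8 T cells 1479 and 953, B cells 1202 and 533.

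Over all kept cells the module was lower in the Crtc2-/- library. Its 38 members made up 0.345% (0.344 to 0.346) of UMIs in Crtc2-/- and 0.619% (0.617 to 0.620) in Crtc2+/+ cells, a log2 ratio of -0.84. For single genes, log2 ratios are Crtc2-/- over Crtc2+/+ after 10 CPM was added to each, and genes with at least 20 UMIs over both libraries were measured. Of 38 members, 37 lay below 0, with a median of -0.84, against 38.5% of 17963 genes below 0 and a median of 0.03. A member is counted as lower or higher where its log2 ratio passed -1 or 1. On this count 12 of 38 members were lower and 0 higher, against 1.1% of all measured genes lower and 1.94% higher.

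The largest library differences were among IFIT genes, whose products bind foreign or incompletely capped RNA. Ifit2 had 49.0 CPM in Crtc2-/- and 188 CPM in Crtc2+/+ cells, and Ifit3 had 72.8 and 251 CPM. Usp18, the protease that strips ISG15 and dampens receptor signalling, had 27.6 and 91.3 CPM. Ifit1bl1 was the 1 member above 0, with 29.4 CPM in Crtc2-/- and 15.8 CPM in Crtc2+/+ cells and a log2 ratio of 0.61. Sp100, a component of PML nuclear bodies, stood nearest to 0 at 338 and 356 CPM (-0.07). Library values also carry the different mixtures of cells, so the members are described within gates below.

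The module's level depended on the cell type in both libraries. In Crtc2-/- cells pDC had the largest share of UMIs from members, 0.610%, followed by endothelial cells (0.544%) and Ly6c2 monocytes (0.529%), and hepatocytes had the smallest, 0.106%. In Crtc2+/+ cells Ly6c2 monocytes stood first at 0.834% and CD4 T cells second at 0.745%, and B cells stood last at 0.201%. In that library the endothelial, macrophage, CD8 T and pDC shares, between 0.668% and 0.675%, had overlapping intervals. Among neighbours in the Crtc2-/- order, neutrophils (0.386%) and macrophages (0.379%) had overlapping intervals, as had B cells (0.196%) and NK cells (0.187%). CD8 T cells stood below macrophages in the Crtc2-/- library at 0.288%, and level with them in the Crtc2+/+ library at 0.674%.

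**Figure D1:**
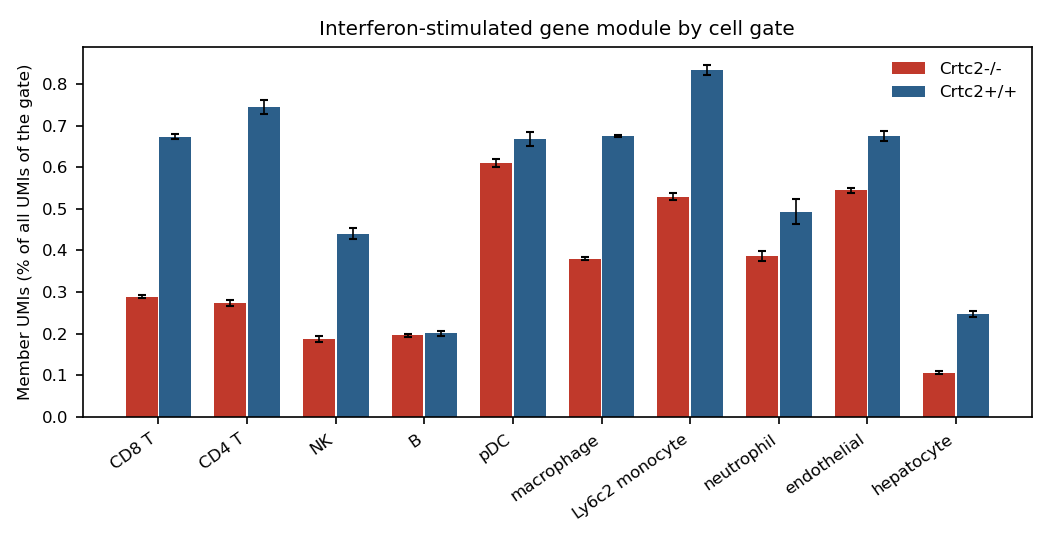
Share of UMIs from the 38 members (vertical axis, % of all UMIs of a gate) in 10 cell gates, Crtc2-/- left of Crtc2+/+. Bars are sums over cells of 1 library each and error bars are 95% Clopper-Pearson intervals. The Crtc2-/- bar is lower in each gate shown, but in B cells the intervals of 0.196% and 0.201% overlap.

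By the summed share, the difference between libraries was largest in T cells, NK cells and hepatocytes, and was not detectable at this depth in B cells. The log2 ratio of the module share was -1.44 (-1.49 to -1.39) in CD4 T cells, -1.24 (-1.31 to -1.16) in NK cells, -1.22 (-1.25 to -1.20) in CD8 T cells and -1.22 (-1.29 to -1.15) in hepatocytes. By the median member, hepatocytes (-0.51) stood nearer to 0 than macrophages (-0.73). The log2 ratio of the share was -0.83 (-0.84 to -0.81) in macrophages and -0.66 (-0.69 to -0.62) in Ly6c2 monocytes. Smaller differences were found in neutrophils, -0.35 (-0.45 to -0.25), endothelial cells, -0.31 (-0.34 to -0.28), and pDC, -0.13 (-0.18 to -0.09). In B cells the interval included 0, with -0.03 (-0.08 to 0.02). The intervals of CD8 T and B cells lay apart, though whether genotype acts differently in these cells was not tested, since there is 1 library of each.

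In CD8 T cells all 38 members lay below 0, with a median of -1.23, and 27 of 38 were lower by the count above, against 0.624% of the 11692 genes measured in that gate. Of the same 38 members 0 were higher, against 0.864%. Among the 5 IFIT genes 4 were lower. Ifit3 had 45.7 (41.2 to 50.5) CPM in Crtc2-/- and 296 (281 to 310) CPM in Crtc2+/+ cells, a log2 ratio of -2.46. Ifit1, the family member that recognises foreign RNA caps, had 34.97 and 153 CPM. Ifit1bl1 was the exception in its family, with 34.5 CPM in Crtc2-/- and 67.5 CPM in Crtc2+/+ cells (-0.80).

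All 5 OAS genes were lower in Crtc2-/- CD8 T cells. The enzymes of Oas1a, Oas2 and Oas3 sense double-stranded RNA and make the short oligoadenylates that activate RNase L, an activity that the OAS-like protein of Oasl1 lacks. Oasl2 had the lowest ratio of any member, with 28 UMIs and 3.38 (2.24 to 4.88) CPM in Crtc2-/- cells, against 426 UMIs and 79.5 (72.1 to 87.4) CPM in Crtc2+/+ cells, a log2 ratio of -2.74. Oas3 had 16.0 and 74.1 CPM. Oas1a was the nearest to 0 of the family at 14.2 and 42.9 CPM (-1.13), a count that is uncertain because of its shared 3′ end.

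The ISG15 system was lower as a group, with 3 of 3 genes. ISG15 is a ubiquitin-like tag, Herc6 its main ligase in the mouse and Usp18 the protease that removes it. Isg15 had 102 (95.5 to 109) CPM in Crtc2-/- and 393 (376 to 410) CPM in Crtc2+/+ CD8 T cells. Usp18 had 21.3 and 153 CPM (-2.38), and Herc6 had 124 and 342 CPM (-1.40). Rsad2, which encodes the enzyme viperin, and its neighbour Cmpk2, a nucleotide kinase, were both lower, with 14.6 and 105 CPM for Rsad2 and 6.51 and 37.1 CPM for Cmpk2.

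Of the 6 members that sense nucleic acids, 5 were lower in CD8 T cells. Ddx60, a helicase that aids RNA sensing, had 45.5 CPM in Crtc2-/- and 135 CPM in Crtc2+/+ cells (-1.39). Zbp1, a sensor of left-handed nucleic acids, had 73.4 and 188 CPM, and Ifih1, which encodes the RNA sensor MDA5, had 38.1 and 92.3 CPM. Ifi203, of the PYHIN family of DNA-binding proteins, was the exception, at 294 and 472 CPM (-0.66). In the PARP9 group, an ADP-ribosylating complex with the ubiquitin ligase Dtx3l, 1 of 3 passed the count, Parp9 at 76.9 and 165 CPM (-1.01).

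Among the 6 other restriction genes 5 were lower in CD8 T cells. Slfn5, a Schlafen family gene, had 16.5 CPM in Crtc2-/- and 117 CPM in Crtc2+/+ cells (-2.26). Isg20, an exonuclease, had 22.9 and 130.4 CPM (-2.09), and Bst2, which encodes tetherin, a membrane protein that holds budding virions at the cell surface, had 111 and 363 CPM (-1.62). Sp100 had the highest ratio of any member, with 537 and 743 CPM (-0.46), followed by Phf11d, a PHD finger gene at low level, with 4.10 and 10.6 CPM (-0.55). Of the 8 remaining members 2 were lower, Rtp4, a receptor chaperone, at 64.5 and 152 CPM, and Xaf1, a binding partner of the apoptosis inhibitor XIAP, at 40.3 and 92.5 CPM.

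**Figure D2:**
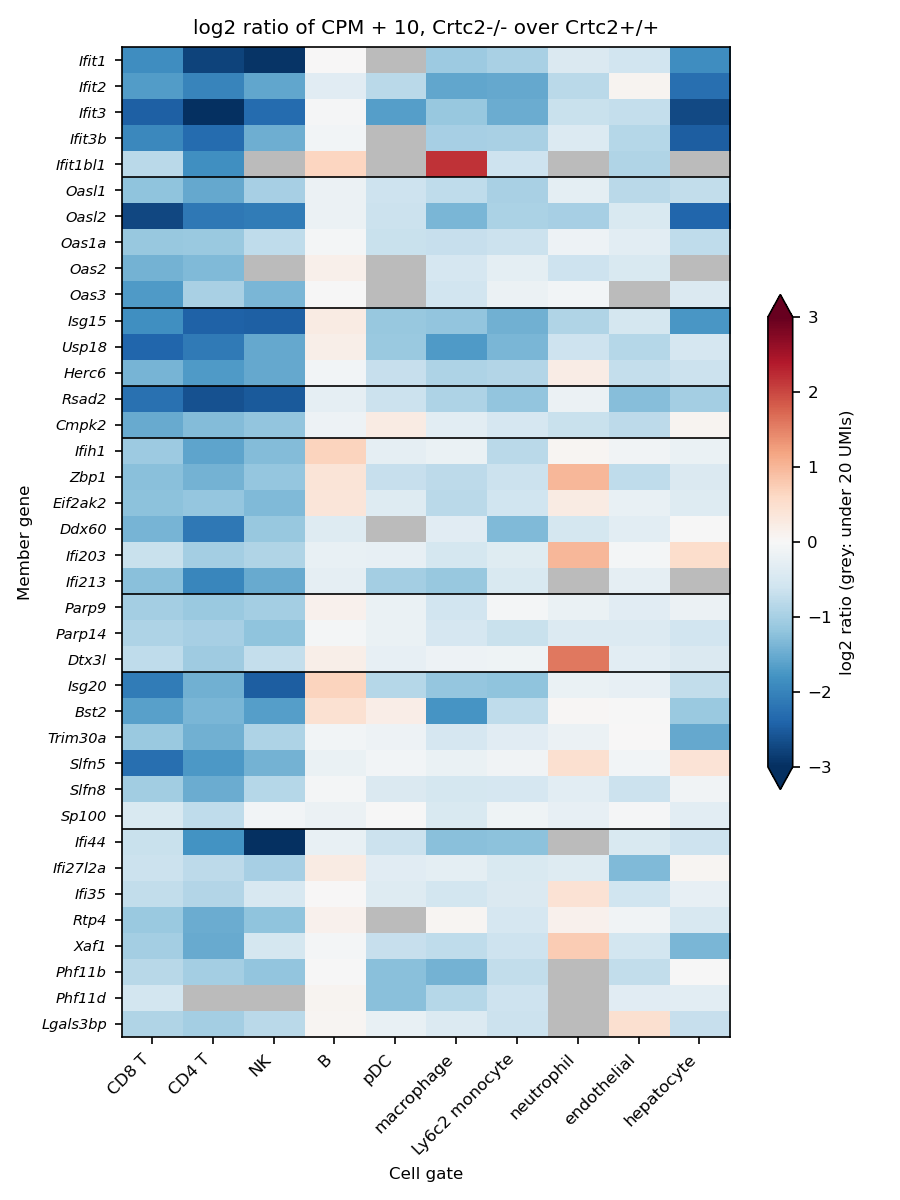
log2 ratio of CPM + 10, Crtc2-/- over Crtc2+/+, of each member (rows, in groups by function divided by black lines) in each gate (columns); blue is lower in Crtc2-/-, red is higher, and grey marks genes with under 20 UMIs over both libraries. The T cell and NK columns are blue wherever measured, the B cell column is pale, and Ifit1bl1 in macrophages (2.17) is the darkest red square.

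The module difference was of like size in CD8 T cells with and without a UMI of Pdcd1, the gene for the inhibitory receptor PD-1. Cells with a Pdcd1 UMI numbered 701 in the Crtc2-/- and 236 in the Crtc2+/+ library, and those without 778 and 717. The module share was 0.287% in Crtc2-/- and 0.665% in Crtc2+/+ cells with Pdcd1, a log2 ratio of -1.21 (-1.25 to -1.17). In cells without Pdcd1 it was 0.290% and 0.676%, a log2 ratio of -1.22 (-1.25 to -1.19). Lower by the count were 23 of 37 members measured with Pdcd1, against 0.981% of all genes, and 26 of 38 without, against 0.606%. In both, 0 were higher, against 1.02% and 0.532% of all genes.

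In CD4 T cells 37 members were measured and all 37 lay below 0, with a median of -1.49; 32 were lower, against 1.15% of all genes measured, and 0 higher, against 1.06%. Ifit3 had 15.2 CPM in Crtc2-/- and 274 CPM in Crtc2+/+ cells, at -3.50 the lowest log2 ratio of any member in any gate. Ifit1 had 20.1 and 195 CPM, Rsad2 10.3 and 114 CPM, Isg15 63.2 and 381 CPM, and Ifit3b, a close copy of Ifit3, 2.94 and 54.5 CPM. The highest ratio was that of Sp100, with 379.7 and 647 CPM (-0.75). Ifi27l2a, a small mitochondrial membrane protein gene, was close to it at 662 and 1156 CPM (-0.79).

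In NK cells 35 members were measured, all 35 lay below 0, and 25 were lower, against 1.03% of all genes measured, with a median of -1.21. Higher were 0, against 0.495%. Ifi44, a gene induced by type I interferon in many tissues, had 2.68 CPM (3 UMIs) in Crtc2-/- and 90.9 CPM (87 UMIs) in Crtc2+/+ cells, a ratio of CPM of 0.0295 (0.00597 to 0.0891). Ifit1 had 8.04 and 128 CPM, Rsad2 5.36 and 78.3 CPM, Isg20 3.57 and 64.7 CPM, and Isg15 25.9 and 187 CPM. Sp100 again had the highest ratio, with 495 and 527 CPM (-0.09), and Ifi35 stood next at 68.8 and 100.2 CPM (-0.49). Ifit1bl1, with under 20 UMIs, was not among the 35 measured. It had 0 UMIs in 213 Crtc2-/- NK cells and 14 UMIs in Crtc2+/+ NK cells, at least 5.46-fold lower against a floor of 3 counts in the Crtc2-/- sum, with an exact upper limit of 0.258 for the ratio of CPM.

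Of the 35 members measured in all 3 gates, 20 were lower in each of them, against 0.462% of the 8012 genes measured in all 3. They comprised Ifit1, Ifit2, Ifit3 and Ifit3b, the ISG15 system, Rsad2 and Cmpk2, Oasl2, Ddx60, Zbp1, Ifih1, Eif2ak2, Ifi213, Bst2, Isg20, Slfn5, Parp9 and Rtp4. The 3 comparisons rest on the same 2 libraries, so this overlap is a description of them and not a separate result. The 17 genes outside the module that were lower in each of the 3 gates included interferon-induced genes such as Irf7, Cxcl10, Gbp6, Igtp, Iigp1, Dhx58 and Rnf213, and the macrophage genes C1qa and Apoe. C1q transcripts (C1qa, C1qb and C1qc), made by macrophages and present in other gates at a low level, were at 86.6 CPM in Crtc2-/- and 182 CPM in Crtc2+/+ CD8 T cells, 75.5 and 237 CPM in CD4 T cells and 77.7 and 196 CPM in NK cells. In cells without a C1q UMI the log2 ratio of the module share was -1.21 in CD8 T cells (970 and 377 cells), -1.39 in CD4 T cells (239 and 106 cells) and -1.38 in NK cells (142 and 77 cells). If every C1q UMI had come with member UMIs in the ratio seen in macrophages, that source would supply 1.04% of member UMIs in Crtc2-/- and 1.16% in Crtc2+/+ CD8 T cells, and at most 4.20%, in Crtc2+/+ B cells, over all gates other than macrophages. This sum covers macrophage RNA alone. Free RNA from other cells and doublets that were not called was not tested.

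B cells had members at low levels in both libraries, without a common direction. All 38 members were measured, 21 lay below 0 and 17 above, the median was -0.02, and 0 were lower, against 0.145% of all genes measured, and 0 higher, against 1.48%. With 10 CPM added, a member under 10 CPM in Crtc2+/+ B cells cannot count as lower. Ifit1 (3.88 CPM), Rsad2 (5.33 CPM) and Usp18 (7.75 CPM) were among these. With 1 CPM added, 0 members were lower, against 0.877% of all genes, and 3 higher, against 6.57%. Isg15 had 14.4 (11.6 to 17.6) CPM in Crtc2-/- and 10.7 (6.68 to 16.1) CPM in Crtc2+/+ B cells. Ifit3 had 18.4 (15.3 to 22.0) and 18.9 (13.4 to 25.8) CPM. For both genes the intervals of the libraries overlapped. Intervals lay apart for Sp100 and Ifi203, with lower CPM in Crtc2-/- B cells. They also lay apart for Bst2, Ifi27l2a, Isg20, Ifih1 and Ifit1bl1, with higher CPM in Crtc2-/- B cells. The most abundant members by UMIs were Sp100, at 509.8 and 581 CPM, and Ifi203, at 259 and 303 CPM, so that Sp100 supplied 26.0% of member UMIs in Crtc2-/- and 29.0% in Crtc2+/+ B cells. The lowest ratios were those of Ddx60, with 15.01 and 22.8 CPM (-0.39), Ifit2 (-0.33), Ifi213 (-0.28), Rsad2 (-0.26) and Ifi44 (-0.22). The highest ratios were those of Ifih1, with 13.8 and 4.85 CPM (0.68), and Isg20, with 19.8 and 8.72 CPM (0.67). With cells that met several gates kept in each, the B cell module ratio was -0.43, and in cells without a C1q UMI it was 0.13 (0.06 to 0.21).

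**Figure D3:**
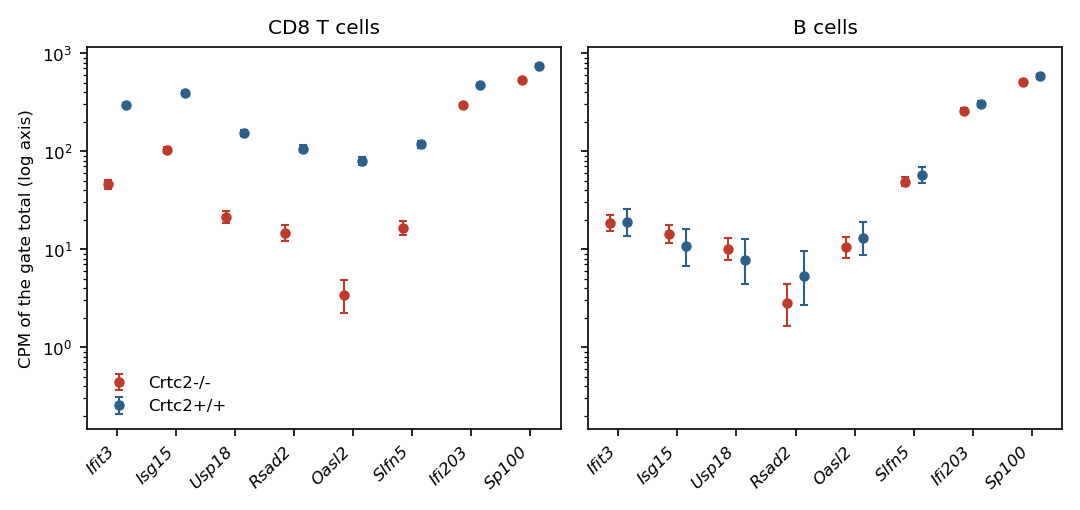
CPM (log axis) of 8 members in CD8 T cells (left) and B cells (right), Crtc2-/- left of Crtc2+/+ for each gene; points are sums over the cells of 1 library and error bars are 95% Poisson intervals. In CD8 T cells the Crtc2-/- point is lower for all 8 genes, while in B cells the intervals of Ifit3, Isg15, Usp18, Rsad2, Oasl2 and Slfn5 overlap. In B cells the intervals of Ifi203 and Sp100 lie apart, with the Crtc2-/- point lower.

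Macrophages, gated by C1q transcripts, had 11 of 38 members lower, against 1.81% of all genes measured, and 1 higher, against 2.68%; 36 lay below 0, with a median of -0.73. Bst2 had 287 CPM in Crtc2-/- and 994 CPM in Crtc2+/+ macrophages, the lowest ratio in this gate (-1.76). Usp18 had 21.0 and 90.6 CPM (-1.70), Ifit2 74.1 and 238 CPM (-1.56), and Phf11b, of the PHD finger family and uncertain for its shared 3′ end, 88.7 and 254 CPM (-1.42). Oasl2 had 87.0 and 239 CPM (-1.36). Rtp4 was level at 133 and 128 CPM (0.06).

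Ifit1bl1, a mouse relative of Ifit1, was higher in Crtc2-/- macrophages. It had 803 UMIs and 66.9 (62.3 to 71.7) CPM in Crtc2-/- cells, against 312 UMIs and 7.11 (6.35 to 7.95) CPM in Crtc2+/+ cells, a log2 ratio of 2.17. A UMI of it was found in 272 of 1048 Crtc2-/- macrophages (26.0%) and 174 of 4487 Crtc2+/+ macrophages (3.88%), at median depths of 10384.5 and 8728 UMIs, and no Crtc2-/- cell held more than 25 of its UMIs. In T cells it went the other way, with 34.5 CPM in Crtc2-/- and 67.5 CPM in Crtc2+/+ CD8 T cells and 11.3 and 66.3 CPM in CD4 T cells. In B cells it had 89 UMIs and 13.8 (11.1 to 17.0) CPM in Crtc2-/- cells, against 11 UMIs and 5.33 (2.66 to 9.54) CPM in Crtc2+/+ cells, a log2 ratio of 0.63, with 13 of its UMIs in 1 Crtc2-/- cell. In endothelial cells a UMI of it was found in 0.994% of Crtc2-/- and 1.91% of Crtc2+/+ cells, at median depths of 10232 and 7222 UMIs, and how much of this is free RNA was not tested.

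The make-up of the macrophage gate differed between libraries. Macrophages with at least 3 UMIs of the Kupffer cell genes Cd5l, Vsig4 and Clec4f numbered 271 in the Crtc2-/- and 31 in the Crtc2+/+ library. With fewer than 50 cells in the Crtc2+/+ library they are given as values alone, with module shares of 0.472% in Crtc2-/- and 0.550% in Crtc2+/+ cells. In the 777 Crtc2-/- and 4456 Crtc2+/+ macrophages without these genes the share was 0.338% and 0.675%, a log2 ratio of -0.997 (-1.01 to -0.98). In them 14 of 38 members were lower, against 1.91% of all genes measured, and 1 was higher, against 2.51%. That 1 was Ifit1bl1, which had 82.2 CPM in Crtc2-/- and 7.12 CPM in Crtc2+/+ cells.

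Ly6c2 monocytes, which can give rise to macrophages, had all 38 members below 0, with a median of -0.64, and 8 lower, against 0.692% of all genes measured, and 0 higher, against 0.537%. Ifit2 had 71.8 CPM in Crtc2-/- and 227 CPM in Crtc2+/+ monocytes, Ifit3 had 91.1 and 275 CPM, and Isg15 had 204 and 574 CPM. Usp18 had 40.7 and 120.5 CPM and Ddx60 25.8 and 79.2 CPM. At the other end, Parp9 had 124 and 129.9 CPM (-0.06) and Slfn5 had 363 and 390.3 CPM (-0.10). Ifi27l2a was the most abundant member in this gate, at 1102 and 1513 CPM (-0.45). Slfn5 thus stood near 0 in monocytes and at -2.26 in CD8 T cells.

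In pDC, specialised producers of type I interferon, 31 members were measured, 29 lay below 0, and 6 were lower, against 0.479% of all genes measured, with a median of -0.63; 0 were higher, against 0.636%. The pDC gate was met by 347 Crtc2-/- and 271 Crtc2+/+ kept cells. Of these, 304 and 90 met no other gate and were used, so a larger part of the Crtc2+/+ cells was left out. Ifit3 had 3.69 CPM in Crtc2-/- and 33.2 CPM in Crtc2+/+ pDC (-1.66). Isg15 had 85.8 and 199 CPM, and Usp18 had 59.3 and 140.1 CPM. Phf11b had 65.4 and 169.8 CPM and Phf11d 4.69 and 24.9 CPM, both at a log2 ratio of -1.25. Bst2, a surface antigen by which mouse pDC are known, had 3275 and 2856 CPM (0.20) and supplied 53.7% of member UMIs in Crtc2-/- and 42.7% in Crtc2+/+ pDC. The other member above 0 was Cmpk2, with 6.03 and 3.56 CPM (0.24). Bst2 thus made up the largest part of the module in this gate. Without the 3 members with the most UMIs its log2 ratio was -0.52, against -0.13 with them, and with cells that met several gates kept it was 0.087, with 17 members lower, against 6.83% of all genes measured with those cells.

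Neutrophils had 32 members measured, 21 below 0, 0 lower, against 2.49% of all genes measured, and 2 higher, against 10.3%, with a median of -0.21. There were 300 Crtc2-/- and 71 Crtc2+/+ neutrophils. Oasl2 had 231 CPM in Crtc2-/- and 469 CPM in Crtc2+/+ neutrophils (-0.99), and Isg15 had 371 and 701 CPM (-0.90). Next came Ifit2 (-0.80), Cmpk2 (-0.67) and Ifit3 (-0.67). Dtx3l had 54 UMIs in Crtc2-/- and 2 UMIs in Crtc2+/+ neutrophils, a ratio of CPM of 4.98 (1.31 to 42.1), and Ifi203 had 22 and 1 UMIs, a ratio of 4.06 (0.655 to 167). With called doublets kept in this gate, 6 members were lower, against 2.36% of all genes then measured, and 1 higher, against 10.9%, and the module ratio was -0.65.

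Endothelial cells had 37 members measured, 34 below 0, and 2 lower, against 2.78% of all genes measured, with a median of -0.45; 0 were higher, against 1.74%. Genes outside the module also differed in this gate, in both directions. Kdr had 1481 CPM in Crtc2-/- and 865 CPM in Crtc2+/+ cells, Mrc1 1216 and 376 CPM, and Pecam1 845 and 1250 CPM. Whether the gate held like cells in both libraries was not tested. Rsad2 had 156 CPM in Crtc2-/- and 393 CPM in Crtc2+/+ endothelial cells (-1.27), and Ifi27l2a had 33.4 and 97.8 CPM (-1.31). With cells that met several gates kept, the log2 ratio of Ifi27l2a was 0.23. Bst2 was level at 1212 CPM in both libraries, Ifit2 had 138 and 129 CPM (0.08), and Lgals3bp, a secreted glycoprotein gene, had 203 and 142 CPM (0.48). The next lowest ratios were those of Ifit1bl1, with 0.912 and 10.4 CPM (-0.90), Ifit3b (-0.87) and Usp18 (-0.86). In cells without a C1q UMI the module ratio was -0.088 (-0.15 to -0.03), against -0.31 in all cells of the gate, and with 1 CPM added in place of 10, 6 members were lower, against 6.33% of all genes measured.

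Hepatocytes, a gate that does not separate tumour from other hepatocytes, had 35 members measured, 31 below 0, and 10 lower, against 5.26% of all genes measured, with a median of -0.51; 0 were higher, against 4.4%. The gating genes Alb, Apoa1 and Ttr together had 23496 CPM in Crtc2-/- and 13127 CPM in Crtc2+/+ cells of this gate. Whether like cells were compared was not tested. The IFIT genes were the lowest group, 4 of 4 measured. Ifit3 had 32.2 CPM in Crtc2-/- and 267 CPM in Crtc2+/+ hepatocytes (-2.72), Ifit3b had 6.93 and 83.3 CPM (-2.46), and Ifit1 had 23.6 and 112 CPM (-1.86). Oasl2 had 7.74 and 81.8 CPM (-2.37) and Ifit2 8.56 and 79.7 CPM (-2.27). The highest ratios were those of Ifi203, with 9.78 and 3.67 CPM (0.53), and Slfn5, with 13.9 and 7.86 CPM (0.42). Usp18 had 33.4 and 51.9 CPM (-0.51).

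Within T, NK, monocyte, macrophage and hepatocyte gates the libraries differed more at the 90th percentile of cells than at the median. In CD8 T cells the median share of UMIs from members in a cell was 0.235% in Crtc2-/- and 0.409% in Crtc2+/+ cells, a log2 ratio of -0.80. The 90th percentile was 0.537% and 1.72%, a log2 ratio of -1.68, and at the 99th percentile the log2 ratio was -0.83. In NK cells the medians were 0.160% and 0.210% (-0.40) and the 90th percentiles 0.325% and 1.01% (-1.63). In Ly6c2 monocytes the medians were 0.455% and 0.558% (-0.29) and the 90th percentiles 0.998% and 2.25% (-1.17). Macrophages had log2 ratios of -0.63 at the median and -1.28 at the 90th percentile, and hepatocytes -0.73 and -1.14. The same ratios were 0.20 and -0.52 in pDC, -0.19 and -0.17 in endothelial cells and -0.07 and -0.06 in neutrophils. B cells had nearly equal values at both, with medians of 0.168% and 0.160% and 90th percentiles of 0.361% and 0.332%.

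**Figure D4:**
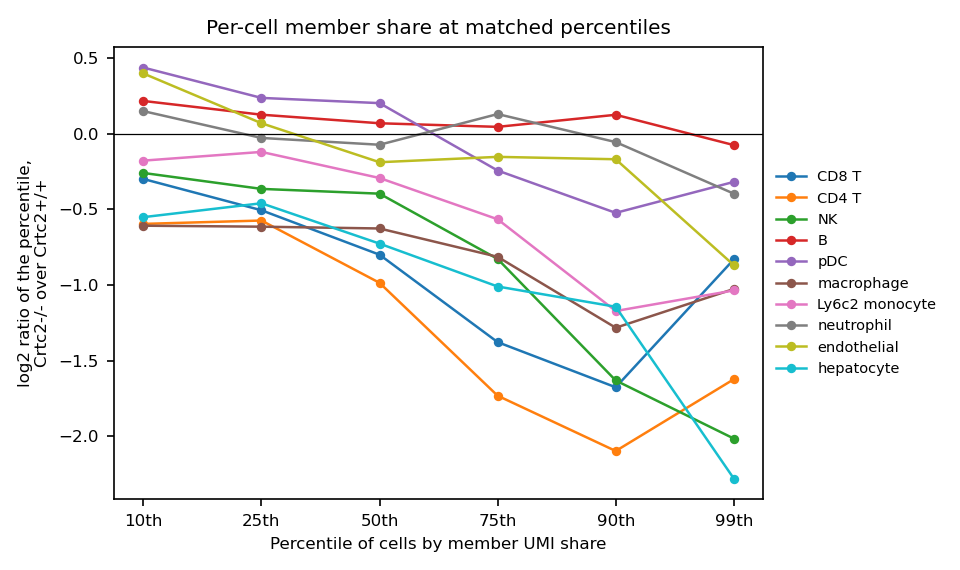
log2 ratio, Crtc2-/- over Crtc2+/+, of the per-cell share of UMIs from members at the same percentile of cells in each library (horizontal axis), 1 line per gate; the black line marks no difference. The CD8 T, CD4 T, NK, Ly6c2 monocyte, macrophage, hepatocyte and pDC lines drop between the 50th and the 90th percentile. The B cell line stays between -0.08 and 0.22.

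Each cell was then thinned to 1000 UMIs, so that cells were compared at equal depth; 0 to 18 cells of a gate and library were too shallow. At least 5 different members were seen in 12.5% (10.9 to 14.3) of 1479 Crtc2-/- CD8 T cells and 40.4% (37.3 to 43.6) of 953 Crtc2+/+ CD8 T cells. In CD4 T cells the shares were 11.0% and 38.7%, in NK cells 4.23% and 22.3%, in macrophages 21.2% and 39.7%, and in monocytes 37.7% and 48.9%. In B cells they were 4.41% (3.32 to 5.73) and 4.70% (3.06 to 6.86), with overlapping intervals. Before thinning, 81.3% of Crtc2-/- and 90.3% of Crtc2+/+ CD8 T cells passed this number, and 50.1% and 35.3% of B cells. At least 10 member UMIs were seen in 3.92% of Crtc2-/- and 23.8% of Crtc2+/+ CD8 T cells. At least 1 was seen in 88.8% and 92.2%, so cells with some member transcripts were common in both libraries.

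**Figure D5:**
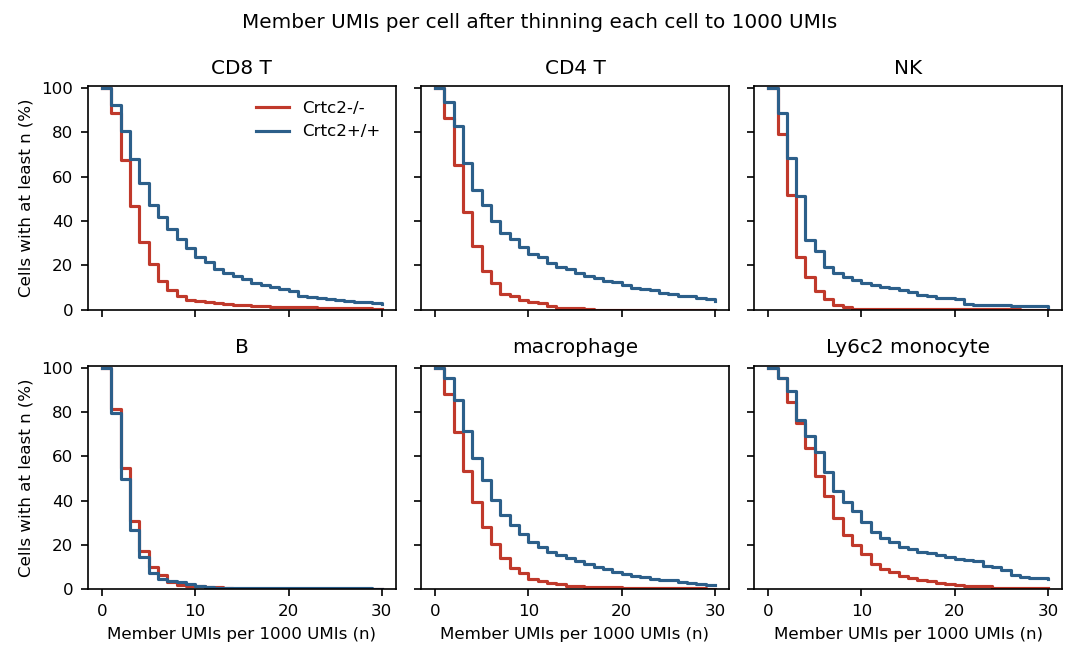
Percentage of cells (vertical axis) with at least the number of member UMIs on the horizontal axis, after each cell was thinned to 1000 UMIs, in 6 gates; red is Crtc2-/- and blue Crtc2+/+. At 10 member UMIs the CD8 T curves stand at 3.92% and 23.8%, while the B cell curves stand at 1.25% and 1.504%.

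Members were seen together in the same cells. At 2000 UMIs a cell, Ifit3 was found in 6.67% (5.44 to 8.07) of 1455 Crtc2-/- CD8 T cells and 29.2% (26.3 to 32.2) of 945 Crtc2+/+ CD8 T cells. Crtc2-/- cells with Ifit3 had a mean of 8.48 other members with a UMI, against 3.97 in cells without it, and Crtc2+/+ cells had 14.1 and 5.65. Isg15 was found in 14.5% and 30.6% of CD8 T cells. In B cells, Ifit3 was found in 2.67% of Crtc2-/- and 3.52% of Crtc2+/+ cells, with a mean of 6.72 and 6.50 other members beside it. Cells with Ifit3 were thus richer in other members in both libraries and both gates.

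The module share was also computed at equal cell mixtures. Each gate, and the cells of no gate or several, was taken as uniform, so mixtures within them remain. With each Crtc2-/- gate level weighted by the Crtc2+/+ mixture, the Crtc2-/- module share was 0.355%, against 0.619% in the Crtc2+/+ library, a log2 ratio of -0.80. With each library's own mixture it was -0.84, and with the Crtc2-/- mixture -0.70. At the Crtc2+/+ mixture 37 of 38 members lay below 0, with a median of -0.70. In these sums a smaller share of cells high in the module and less module RNA per cell cannot be told apart.

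Other interferon pathway genes, from lists that do not overlap the module, differed with it in part. Of 47 measured other interferon-stimulated genes, 46 lay below 0 in CD8 T cells, 12 were lower, against 0.624% of all genes measured, and 0 higher, against 0.864%, with a median of -0.72. Parp11 (26.7 CPM in Crtc2-/- and 105 CPM in Crtc2+/+ cells) and Ms4a4c (83.3 and 219 CPM) had the lowest ratios. In CD4 T cells 17 of 45 measured were lower, against 1.15% of all genes, with a median of -0.85, and in NK cells 7 of 42, against 1.03%, with a median of -0.53. In B cells 24 of 45 lay below 0 and 0 were lower, against 0.145% of all genes, with a median of -0.02, and Ifitm3, which blocks viral fusion, had the highest ratio at 166 and 84.3 CPM (0.90). In macrophages 3 of 48 were lower, against 1.81% of all genes, with a median of -0.35.

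The receptors and kinases stood closer to 0 than the module. In CD8 T cells 8 of 11 measured genes for interferon receptors, JAK kinases and ISGF3 lay below 0, with 0 lower, against 0.624% of all genes, and a median of -0.24. Stat2, a subunit of ISGF3, had 31.7 CPM in Crtc2-/- and 65.5 CPM in Crtc2+/+ CD8 T cells (-0.86), while the receptor gene Ifnar1 had 85.5 and 73.5 CPM (0.19). Among 7 measured interferon regulatory factors 1 was lower, against 0.624% of all genes, and 1 higher, against 0.864%. Irf7, which amplifies type I interferon production, was lower at 34.0 and 108 CPM (-1.42). Irf4, a factor induced by T cell receptor signals, was higher at 48.7 and 10.3 CPM (1.54). Among 12 negative regulators 1 was lower, against 0.624% of all genes, and 0 higher, against 0.864%. The lower gene was Socs1, an inhibitor of JAK kinases that interferon induces, at 58.4 and 151 CPM (-1.24). In B cells 0 genes of these 3 lists were lower, against 0.145% of all genes, and Stat2 had 40.6 CPM in Crtc2-/- and 32.5 CPM in Crtc2+/+ cells (0.25).

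Transcripts of the type I and type III interferon genes themselves were rare. Of 19 such genes, Ifnb1, which encodes interferon beta, was the 1 gene measured in any gate. It had 2 UMIs in 2 of 8901 Crtc2-/- cells and 98 UMIs in 32 of 9349 Crtc2+/+ cells, with up to 11 UMIs in 1 cell. Macrophages held 0 of its UMIs in 1048 Crtc2-/- cells and 73 UMIs in 27 of 4487 Crtc2+/+ cells, 1.66 (1.30 to 2.09) CPM, at least 6.66-fold lower in Crtc2-/- against a floor of 3 counts, with an exact upper limit of 0.189 for the ratio of CPM. In pDC it had 0 UMIs in 304 Crtc2-/- cells and 1 UMI in 90 Crtc2+/+ cells. In Crtc2-/- macrophages the floor of 3 counts is 0.250 CPM, and the exact upper limit of the count of 0 is 0.307 CPM.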

How the data were processed

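The deposited files hold whole-number UMI counts per gene and cell barcode, as filtered by the authors and made with Cell Ranger 7.1.0, per the file headers; the submitters' processing notes also name Seurat and build mm10. No per-cell annotation was used here. All further values were computed from these counts with scanpy 1.11.5 (Scrublet, with an expected 0.8% doublets per 1000 barcodes), anndata 0.12.19, scikit-image 0.26.0, pandas 2.3.3, scipy 1.17.1, numpy 2.4.6 and matplotlib 3.10.9 in Python 3.11.15. Barcodes passed with 500 UMIs, 250 detected genes and a mitochondrial share of no more than 20%, which held for 9174 in the Crtc2-/- and 9612 in the Crtc2+/+ library. Called doublets, 2.98% and 2.74% of these, against 7.34% and 7.69% expected, were removed.

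Gates required minimum UMI sums. CD8 T cells needed 2 UMIs of Cd3d, Cd3e and Cd3g and 1 of Cd8a and Cd8b1. CD4 T cells needed the same Cd3 sum, 1 of Cd4 and no Cd8, and NK cells 2 of Ncr1 and Klrb1c with no Cd3. B cells needed 2 of Cd79a and Cd79b, pDC 2 of Siglech, macrophages 20 of C1qa, C1qb and C1qc, and neutrophils 20 of S100a8 and S100a9. Endothelial cells needed 3 of Ptprb and Stab2 and hepatocytes 20 of Alb, Apoa1 and Ttr. Ly6c2 monocytes needed 2 of Ly6c2 and 5 of Lyz2, with sums under the minimum for macrophages, B cells and neutrophils and no Cd3 or Siglech. Cells in several gates, 724 and 489, were left out of the gates, and 2259 and 1604 cells met none. A gate or a split of it needed 50 cells in each library.

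Genes with at least 20 UMIs over both libraries in a comparison were measured, and 10 CPM was added before a log2 ratio, which pulls low genes toward 0. With 1 library per genotype no test or adjusted p was computed. Intervals are exact 95% intervals: Poisson for CPM, conditional binomial for ratios of summed counts and Clopper-Pearson for shares of cells and of UMIs. They cover counting error only. The fold computation was tested on simulated data. Of 32285 features, 32158 matched GENCODE M21. Promoters are RefSeq windows, 32851 for 27025 genes.

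The members and lists were chosen with earlier results of these data known. Rules named the 5 lowest and the 2 highest members of each gate, up to 4 genes of a pathway list by size of ratio and the 10 genes most like the module; further members were named to fill their group, after their values were seen. The alternatives tried were other limits on mitochondrial UMIs, doublets, several-gate cells, gate minimums, cells without C1q, 1 CPM added, no minimum count, all barcodes, another scaling, means over cells, leaving out the 3 most abundant members, other thinning and the other mixture. Results for 1 pathway gene are not reported here.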

Additional observations from a re-analysis of the deposited data

Results flagged for a closer look

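Ifit1bl1 had a log2 ratio of 2.17 in macrophages and 0.63 in B cells, both above 0, while it lay below 0 in CD8 T, CD4 T, monocyte and endothelial gates; the difference between gates was not tested. Dtx3l (1.57) and Ifi203 (1.01) passed the count for higher in Crtc2-/- neutrophils, as did 10.3% of all genes measured there. For Ifi203 the interval of the ratio of CPM, 0.655 to 167, included 1. Both genes lay below 0 in CD8 and CD4 T cells, and these differences were not tested either. They rest on 54 and 2 UMIs for Dtx3l and on 22 and 1 UMIs for Ifi203, of which 9 were in 1 Crtc2-/- cell, in 300 Crtc2-/- and 71 Crtc2+/+ neutrophils.

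In B cells without a C1q UMI the module log2 ratio was 0.13 (0.06 to 0.21), in 813 Crtc2-/- and 260 Crtc2+/+ cells, on the other side of 0 from T cells; this was not tested. Cells that met no gate, which no comparison of the gates uses, had a module share of 0.284% in Crtc2-/- and 0.526% in Crtc2+/+ cells, a log2 ratio of -0.89.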

How the results depend on the processing

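No paired analysis was possible because there is 1 library per genotype and the labels give no replicate numbers; for the same reason no library could be left out. Over all alternatives, 291 values of the comparisons stayed, 75 moved and 1 turned its direction. A count stayed if within 1.5 times its main value, a median if within an interval from the spread of its genes, and other values if within counting error. Of single members' values, 337 stayed, 194 moved and 1 turned. For these the interval was that of the ratio without added CPM, so a low member could count as moved with its value unchanged. The cause of these moves was not tested. Apart from those of medians, the intervals hold counting error alone, so many moves are small. With cells of several gates kept in each, the module log2 ratio of pDC was 0.087 and that of Ifi27l2a in endothelial cells 0.23, both on the other side of 0. With the same cells kept, the module ratio was -0.43 in B, -1.17 in CD8 T, -1.06 in NK, -1.09 in hepatocytes and -0.77 in macrophages. Member medians were then -0.38 in B, -0.26 in endothelial cells and -0.99 in pDC. With those cells 17 pDC and 2 B cell members were lower, against 6.83% and 1.04% of all genes then measured. In B, pDC and neutrophils 1 member each was higher, against 1.61%, 4.61% and 10.3% of all genes. In cells without a C1q UMI the module ratio was 0.13 in B, -1.39 in CD4 T, -1.38 in NK and -0.088 in endothelial cells. The medians were 0.19 in B and -0.15 in endothelial cells. In endothelial cells and hepatocytes without a C1q UMI 1 member each was higher, against 3.77% and 8.58% of all genes. This alternative was not run in pDC (177 Crtc2-/- and 25 Crtc2+/+ cells) and neutrophils (214 and 33 cells). With doublets kept, the module ratio was -0.37 in endothelial cells, -1.29 in hepatocytes and -0.65 in neutrophils, where the median was -0.47. Of neutrophil members 6 were then lower, against 2.36% of all genes, and 1 higher, against 10.9%. With gate minimums doubled, 1 neutrophil member was higher, against 10.4% of all genes, and 3 lower, against 3.22%. In endothelial cells 1 was lower, against 2.62%. The module ratio was then -1.26 in CD4 T (median -1.25), -1.20 in CD8 T, -0.24 in endothelial cells, -0.77 in macrophages, -0.48 in neutrophils and -0.18 in pDC. As a mean over cells, it was -1.54 in CD4 T, -1.19 in CD8 T, -0.73 in monocytes, -1.14 in NK, -0.23 in endothelial cells, -0.92 in macrophages, -0.16 in neutrophils and -0.085 in pDC. Without the 3 members with the most UMIs, it was 0.049 in B, -1.82 in CD4 T, -1.57 in CD8 T, -0.75 in monocytes, -1.69 in NK, -0.45 in endothelial cells, -0.97 in hepatocytes, -0.78 in macrophages and -0.52 in pDC. With 1 CPM added, medians were -1.77 in CD4 T, -1.55 in NK and -0.73 in pDC, and -0.71 for other interferon-stimulated genes in NK. Higher were then 3 members in B, 1 in hepatocytes and 4 in neutrophils, against 6.57%, 8.37% and 15.8% of all genes. Lower were 6 in endothelial cells and 2 in neutrophils, against 6.33% and 4.13%. With the median of all genes set to 0, 1 neutrophil member was higher, against 8.81% of all genes, and 1 lower, against 3.12%. At the Crtc2-/- mixture the ratio was -0.70. The log2 ratio of the share of cells with at least 3 member UMIs, -0.58 in CD4 T, -0.53 in CD8 T, -1.10 in NK, -1.06 in hepatocytes and -0.43 in macrophages at 1000 UMIs, was -0.17 in CD4 T, -0.16 in CD8 T, -0.30 in NK and -0.17 in macrophages at 2000 UMIs, and -0.00067 in CD4 T, -0.013 in CD8 T, -0.051 in NK, -0.017 in hepatocytes and -0.0019 in macrophages without thinning, where nearly all deep cells pass.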

Other observations

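The genes outside the module whose level followed the module most closely over gates were described by Pearson's r of log2(CPM + 10) with the mean over members, across the 20 gate sums of both libraries, among 12753 genes with at least 200 UMIs. These sums share libraries and depth, so r is a description. Rnf213, a large interferon-induced ubiquitin ligase, stood first with r of 0.914, and had 93.9 CPM in Crtc2-/- and 312 CPM in Crtc2+/+ CD8 T cells. Dhx58, which encodes the RNA sensor LGP2, followed at 0.874, then Trafd1 (0.847), Znfx1 (0.843), 4930599N23Rik (0.828), Daxx (0.797), Ppp1r9b (0.797), A930037H05Rik (0.785), Tor3a (0.780) and Parp12 (0.776). Dhx58, Daxx, Tor3a and Parp12 are on the list of other interferon-stimulated genes.

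In macrophages 1 of 12 negative regulators was higher, against 2.68% of all genes measured. It was Ptpn1, a phosphatase, with 506 CPM in Crtc2-/- and 246 CPM in Crtc2+/+ cells (log2 ratio 1.01). In NK cells 1 of 12 negative regulators was lower, against 1.03% of all genes measured. It was Cish, a cytokine-induced inhibitor of JAK-STAT signalling, with 14.3 CPM in Crtc2-/- and 55.3 CPM in Crtc2+/+ cells (-1.43). Irf4 was higher in CD4 T cells as well, with 53.9 CPM in Crtc2-/- and 16.4 CPM in Crtc2+/+ cells (1.28). There 1 of 7 measured interferon regulatory factors was higher, against 1.06% of all genes.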
